A study of Bos taurus with 147 samples.

Results

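The expression of 6 genes of blood vessels and of the nonmuscle cytoskeleton was followed in bovine longissimus muscle, the long muscle of the back: EGFL7, ACTA2, CNN1, VIM, PLS3 and TMSB10. The members were taken from the array annotation by gene symbol, and a gene's value on an array is the mean over all elements that carry its symbol alone. They are 6 of the 976 named genes of the array and hold 38 of its 4490 elements with a single gene name. VIM is printed as 18 elements from 9 cDNA clones, TMSB10 as 10 elements from 5 clones and ACTA2 as 4 elements from 2 clones, while EGFL7, CNN1 and PLS3 have 2 elements from 1 clone each.

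The fetal arrays compared 8 groups, Piedmontese × Hereford and Wagyu × Hereford at d 60, d 135 and d 195 of gestation and in newborn calves. All dams were Hereford. The Piedmontese sires carried a myostatin missense mutation on both alleles and the Wagyu sires did not, so that each Piedmontese-sired fetus received an altered allele from its sire. The d 60 sample was an area of tissue at the future position of the muscle, from which the overlying skin was harder to remove, and all fetal RNA was amplified before labelling. A further 20 arrays compared Piedmontese × Hereford with Wagyu × Hereford longissimus muscle at time points T1, T2 and T3, whose ages are not given in the sources used here. On each array RNA of one group was labelled with Cy5 and RNA of another with Cy3, and the value is the log2 ratio of the pair. The ratio is likely Cy5 over Cy3, from the dyes in the labels and the drawn design, and all directions below rest on this.

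EGFL7 encodes a protein secreted by endothelial cells, which line blood vessels. ACTA2 encodes the smooth muscle actin and CNN1 encodes calponin, an actin-binding protein of differentiated smooth muscle such as that of the vessel wall. VIM encodes vimentin, the intermediate filament protein of mesenchymal, endothelial and undifferentiated muscle cells, whose place desmin takes as muscle fibres mature. PLS3 encodes plastin, a protein that bundles actin filaments in many cell types of solid tissues, and TMSB10 encodes a thymosin, a small protein that binds actin monomers.

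The 25 fetal arrays had 19404 to 20771 usable elements each, and the 20 crossbred arrays 20794 to 20946. The fetal groups form a closed loop of 8 links, with 3 arrays in each link and 4 in the link of Wagyu-sired d 195 with d 135, and within a link the dyes were never exchanged. In links between stages the earlier stage carried Cy5 in Piedmontese-sired and the later in Wagyu-sired muscle. Dye and sire breed thus cannot be told apart in the single arrays of a step, and the fitted dye term rests on the loop. For CNN1 this Cy5 over Cy3 term was -0.61 ± 0.28 (SE, ordinary least squares). EGFL7, ACTA2, VIM and TMSB10 had a value on all 25 fetal arrays, CNN1 on 22 and PLS3 on 23, and all members had a value on all 20 crossbred arrays. On 1 array that set RNA of Piedmontese × Hereford T1 against itself, the ratios would be 0 without error. There the members stood at 0.32 for EGFL7, -0.45 for ACTA2, -2.06 for CNN1, -0.01 for VIM, 0.05 for PLS3 and 0.14 for TMSB10, against a median absolute value of 0.15 over 976 named genes. A CNN1 ratio on a single array can thus be far from 0 with no difference in RNA, and 0.205% of the named genes lay farther from 0 on that array.

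From d 60 to birth, over both sire breeds, VIM fell 11.2-fold, PLS3 6.14-fold, EGFL7 5.59-fold and TMSB10 1.77-fold. These were 4 of the 6 members, all lower at birth, where 25.6% of the 16659 features of the array passed the test as lower and 22.6% as higher. ACTA2 and CNN1 did not pass it. The median log2 ratio of birth over d 60 was -1.65 over the 6 members and -0.07 over all features. Each comparison was tested with limma's moderated statistic, with Benjamini-Hochberg adjustment over all features and a threshold of 0.05. Muscle pieces hold many cell types, and fewer cells of a type and less RNA per cell cannot be told apart. VIM and PLS3 were among the genes that the study itself selected on these arrays for their fall, and their direction is not independent evidence.

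**Figure D1:**
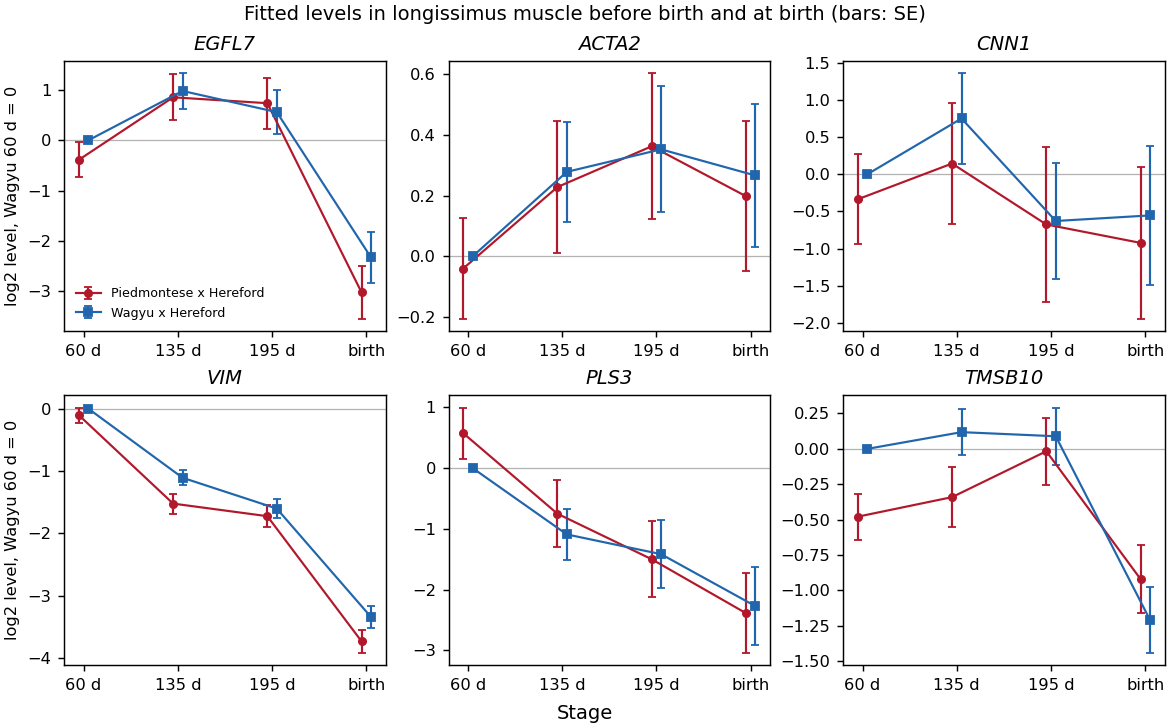
Fitted log2 level of each gene (vertical axis) at the 3 fetal ages and at birth (horizontal axis) relative to Wagyu-sired d 60, in Piedmontese-sired (circles) and Wagyu-sired (squares) muscle, with the SE of the difference from Wagyu-sired d 60 as bars. VIM and PLS3 are lowest at birth in both sire breeds, EGFL7 is above its d 60 level at d 135 and far below it at birth, and the bars of CNN1 are the longest.

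VIM fell at every step between stages. For d 135 over d 60, the arrays gave -1.04, -1.50 and -1.82 in Piedmontese-sired and -1.07, -1.06 and -1.09 in Wagyu-sired fetuses, and the fitted mean was -1.26 ± 0.09 (SE, adjusted p = 2.66e-08). For d 195 over d 135, they gave -0.13, -0.24 and -0.35 in Piedmontese-sired and -0.44, -0.54, -0.48 and -0.37 in Wagyu-sired fetuses, with a fitted mean of -0.35 ± 0.09 (adjusted p = 0.00903). For birth over d 195, they gave -2.13, -1.85 and -2.16 in Piedmontese-sired and -1.81, -1.46 and -1.83 in Wagyu-sired animals, with a fitted mean of -1.87 ± 0.09 (adjusted p = 5.64e-12). All of these arrays lay below 0. Those of the step to birth, between -2.16 and -1.46, overlapped with those of the first step, between -1.82 and -1.04, and not with those of the second. Relative to Wagyu-sired d 60, the level of VIM was -0.11 ± 0.12, -1.52 ± 0.16, -1.73 ± 0.18 and -3.74 ± 0.18 (SE) at the 4 stages in Piedmontese-sired muscle. In Wagyu-sired muscle it was -1.11 ± 0.12, -1.60 ± 0.15 and -3.34 ± 0.18 at d 135, d 195 and birth. Birth over d 60 had a mean of -3.49 ± 0.16 (95% interval -3.82 to -3.16, adjusted p = 4.28e-12). With members fitted clone by clone, all 9 VIM clones were lower at birth, at -4.10 to -2.52, where 25.7% of features were lower in that fit and 22.6% higher.

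EGFL7 rose and then fell. For d 135 over d 60 the arrays gave 2.04, 1.27 and 0.62 in Piedmontese-sired and 1.25, 0.85 and 0.64 in Wagyu-sired fetuses. All lay above 0, and the mean was 1.11 ± 0.27 (SE), a 2.16-fold rise (adjusted p = 0.00287). EGFL7 was the one member that rose at this step, where 14% of all features were higher. Of 5 other endothelial genes none was higher and 1 was lower there, with a median of -0.26. For d 195 over d 135 the arrays lay on both sides of 0, between -0.33 and 0.22 in Piedmontese-sired and between -1.21 and 0.23 in Wagyu-sired fetuses, and the mean of -0.27 ± 0.25 did not pass the test (adjusted p = 0.511). For birth over d 195 they gave -2.49, -4.14 and -4.44 in Piedmontese-sired and -3.72, -2.85 and -2.30 in Wagyu-sired animals. The mean was -3.32 ± 0.27, or 10-fold lower at birth (adjusted p = 3.48e-09), the largest change of any member between neighbouring stages. The difference between sire breeds in that fall was -0.87 ± 0.46 and did not pass the test (adjusted p = 0.327). The level at birth was below that at d 60, with a log2 ratio of -2.48 ± 0.45 (adjusted p = 9.78e-05).

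PLS3 had the same order of levels as VIM, with more spread. For d 135 over d 60 the arrays gave -1.42, -0.75 and -1.63 in Piedmontese-sired and -0.86, -1.76 and -0.84 in Wagyu-sired fetuses, all below 0, with a mean of -1.21 ± 0.32 (SE, adjusted p = 0.00667). VIM and PLS3 were the 2 members that fell at this step, where 17% of features were lower. For d 195 over d 135 they gave 0.56, -1.99 and -0.63 in Piedmontese-sired and -0.63, -0.12 and -0.42 in Wagyu-sired fetuses. The arrays at -1.76 and -1.99 were read from a single spot each. The mean of d 195 over d 135, -0.54 ± 0.32, did not pass the test (adjusted p = 0.28). VIM was the one member that did, where 6.19% of features were lower. For birth over d 195, 2 of the Piedmontese-sired arrays gave -1.91 and -1.71 and the other gave 1.14, while 2 Wagyu-sired arrays gave -0.89 and -0.94. The mean of -0.87 ± 0.36 was close to the threshold (adjusted p = 0.0464). Leaving out single arrays gave -0.60 to -1.36, with -1.36 without the array at 1.14 (adjusted p = 0.000513), and the call was lost without 16 of the 25 arrays (adjusted p 0.051 to 0.191). It was kept without each array numbered 2 outside the d 60 breed link, without the first array of Piedmontese-sired d 195 over d 135 and without the third of the breed link at birth. Among those numbered 2, the Wagyu-sired arrays of birth over d 195 and of d 195 over d 135 had no PLS3 value. Leaving these out could not change its mean. The call was also lost with arrays scaled to one spread (-0.54, adjusted p = 0.218) and with array weights (-0.52, adjusted p = 0.429). Birth over d 60 had a mean of -2.62 ± 0.57 (adjusted p = 0.000847). With ratios at the upper limit kept instead of taken as missing, which brings in 1 spot value, PLS3 turned to 2.10 for birth over d 195 and 0.36 for birth over d 60 and passed neither test (adjusted p = 0.236 and 0.917), and its first step of -1.21 lost the call (adjusted p = 0.568).

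**Figure D2:**
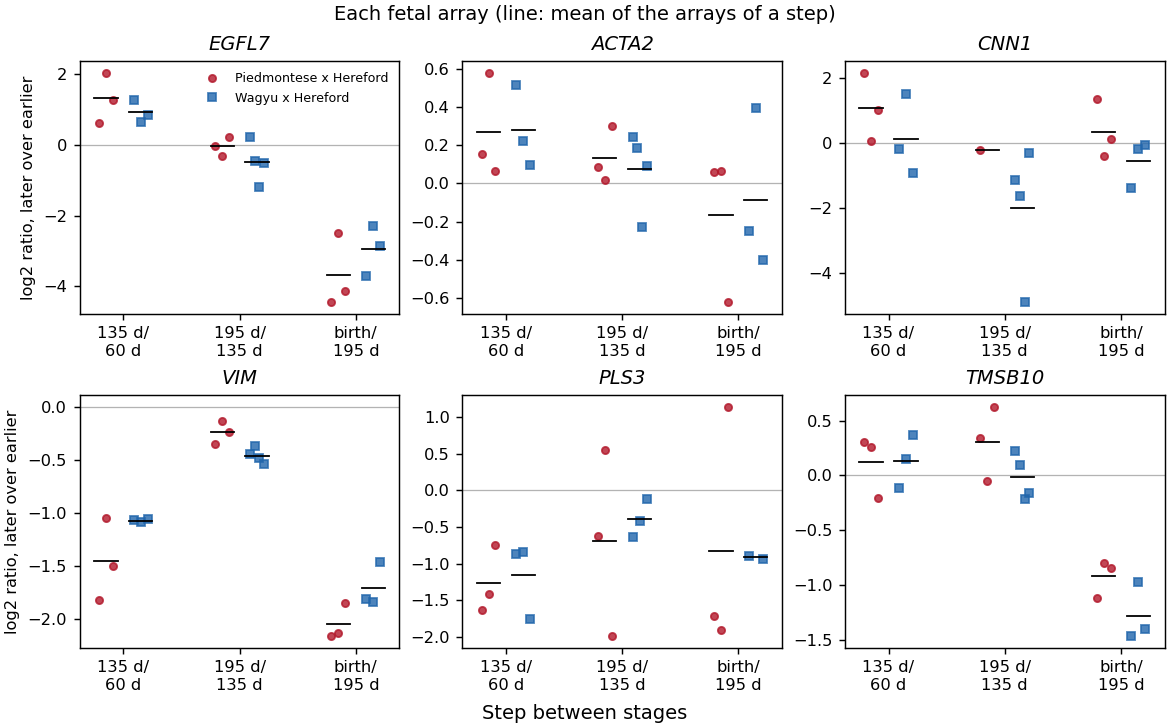
Log2 ratio of each array (vertical axis), turned to the later over the earlier stage, for the 3 steps between stages (horizontal axis), with Piedmontese-sired (circles) and Wagyu-sired (squares) arrays side by side and a line at their mean. All VIM arrays lie below 0, EGFL7 lies above 0 at the first step and at or below -2.30 at the last, and 1 PLS3 array of the last step stands at 1.14 among negative ones.

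As a mean over its elements, TMSB10 changed at the step to birth. For d 135 over d 60 and for d 195 over d 135 its means were 0.13 ± 0.12 and 0.15 ± 0.12 (SE), with arrays on both sides of 0 (adjusted p = 0.46 and 0.428). For birth over d 195 the arrays gave -0.80, -0.85 and -1.12 in Piedmontese-sired and -1.47, -1.40 and -0.97 in Wagyu-sired animals. All lay below 0, and the mean was -1.10 ± 0.12 (adjusted p = 2.48e-07). With EGFL7, VIM and PLS3, TMSB10 made 4 members lower at birth than at d 195, where 25.8% of features were lower. Relative to d 60 its mean at birth was -0.82 ± 0.21 (adjusted p = 0.00257), and -0.48 with arrays scaled to one spread (adjusted p = 0.0711). The paralog TMSB4X, another thymosin, fell over the same interval, with -1.79 ± 0.35 (adjusted p = 0.000215). The array cannot show how far transcripts of one thymosin bind the cDNA of the other, and this was not tested.

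The 5 clones of TMSB10 did not move together. Clone 1 was higher at birth than at d 60, by 1.67 ± 0.19 (SE, adjusted p = 3.75e-07), with 1.64 in Piedmontese-sired and 1.69 in Wagyu-sired muscle. Clones 2, 4 and 5 were lower, at -1.51 ± 0.25, -2.07 ± 0.36 and -1.70 ± 0.54 (adjusted p = 3.72e-05, 6.07e-05 and 0.0134), and clone 3 at -0.60 ± 0.42 did not pass the test (adjusted p = 0.239). Clone 1 was also higher at each step, at 0.67, 0.62 and 0.38 in order of age (adjusted p = 0.000171, 0.000457 and 0.00832). No other clone passed the test at the first and second steps, and 3 were lower at the step to birth. The 2 spots of a clone stood close together, with a median absolute difference of 0.09 over 120 spot pairs. The mean over all 10 elements is thus a mean over opposite directions. Without clone 1, left out after its values were seen, TMSB10 was -1.47 for birth over d 60 (adjusted p = 2e-05) and -1.49 for birth over d 195 (adjusted p = 1.47e-08). Whether clone 1 carries TMSB10 sequence alone was not tested.

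**Figure D3:**
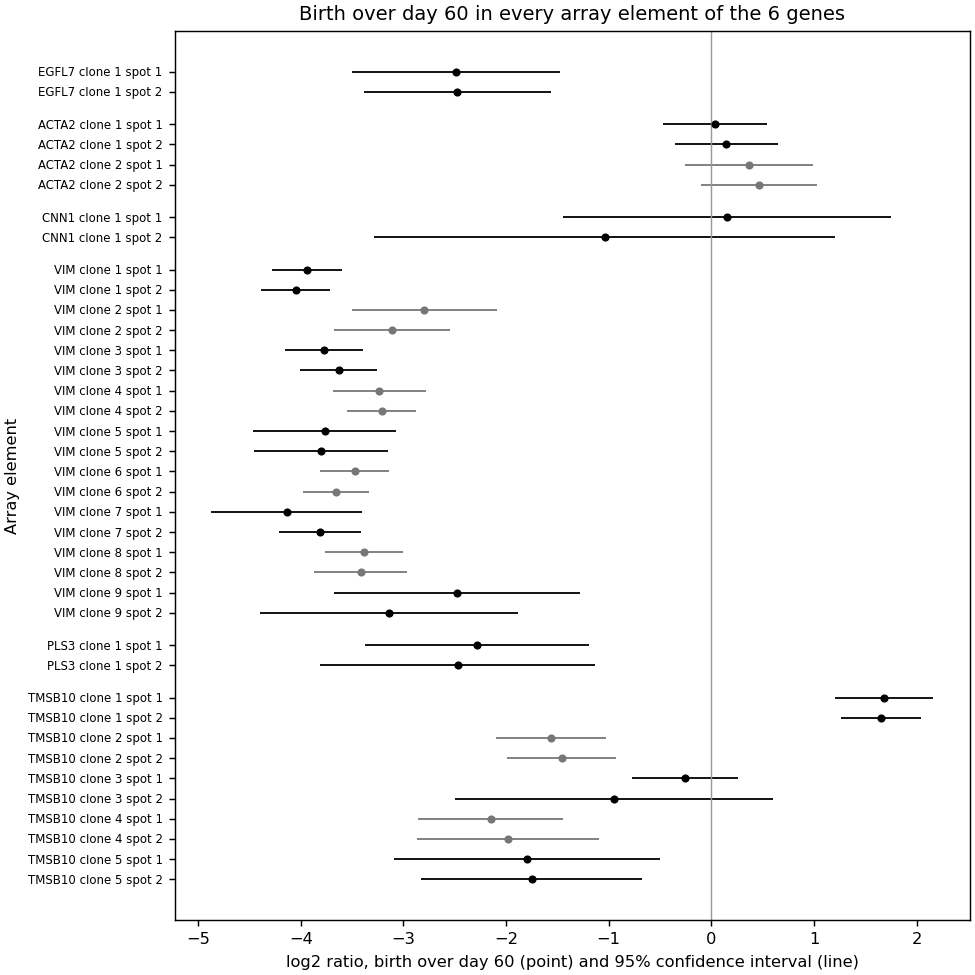
Log2 ratio of birth over d 60 (horizontal axis, points) with its 95% confidence interval (lines) for each array element of the 6 genes (rows, shades alternate between clones), with each element fitted as a feature of its own where it had enough values. All 18 VIM elements lie between -2.48 and -4.14, and the 2 elements of TMSB10 clone 1 lie at 1.65 and 1.68 while those of clones 2, 4 and 5 lie between -1.46 and -2.15.

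Of the smooth muscle pair, neither member passed the test at any fetal step as the mean over its elements. The ACTA2 arrays lay between 0.07 and 0.58 for d 135 over d 60, between -0.23 and 0.30 for d 195 over d 135 and between -0.62 and 0.40 for birth over d 195. The first step was above 0 on all 6 arrays, with a mean of 0.27 ± 0.13 (SE, adjusted p = 0.106). Fitted singly, clone 2 passed the test at this step (0.49 ± 0.16, adjusted p = 0.0222) and clone 1 did not (0.05 ± 0.14, adjusted p = 0.807). Over the whole interval, birth over d 60, ACTA2 was 0.25 ± 0.21, with a 95% interval of -0.19 to 0.70 (adjusted p = 0.335), and its clones stood at 0.09 ± 0.24 and 0.41 ± 0.27. Over the same interval ACTA1, the actin of skeletal muscle fibres, rose, with 2.67 ± 0.30 (adjusted p = 2.51e-07). ACTA1 and ACTA2 had an uncentred correlation of 0.58 over 25 fetal arrays and 0.79 over 20 crossbred arrays. Their coding sequences are alike, and binding of one actin's RNA to the other's cDNA was not tested.

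CNN1 could not be placed with any precision before birth. Both of its spots were read on 15 of the 25 fetal arrays. Its arrays spanned -0.90 to 2.17 for d 135 over d 60, -4.88 to -0.22 for d 195 over d 135 and -1.38 to 1.36 for birth over d 195, and the -4.88 came from a single spot of 1 Wagyu-sired array. All 5 arrays of d 195 over d 135 with a value lay below 0, 4 of them Wagyu-sired and 1, at -0.22, Piedmontese-sired. The mean of -1.10, in which both sire breeds count alike, did not pass (adjusted p = 0.254). It was -0.62 without the array at -4.88, and it passed with array weights (-1.01, adjusted p = 0.027). The mean for birth over d 60 was -0.57 ± 0.89 (SE), with a 95% interval of -2.44 to 1.30 (adjusted p = 0.61), wide enough to hold both a fall and a rise. Leaving out single arrays gave -0.91 to -0.09, the value nearest 0 without the array at -4.88.

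The sire breeds were compared within each stage, as Piedmontese over Wagyu. TMSB10 and VIM were among the genes the study selected on these arrays for a sire breed difference, so that their values are not independent evidence of one. No member passed the test at any stage. In order of age, 0.048%, 0%, 0% and 0.276% of all features did, and 3 of the 24 pairs of member and stage had an unadjusted limma p under 0.05. They were VIM at birth, TMSB10 at d 60 and VIM at d 135. VIM at birth gave -0.21, -0.50 and -0.36 on the 3 arrays and a fitted -0.39 ± 0.12 (SE, adjusted p = 0.116). TMSB10 at d 60 gave -0.61, -0.65 and -0.23, below 0 on all 3 arrays, and a fitted -0.48 ± 0.16 (adjusted p = 0.237). VIM at d 135 has no array of its own for this comparison, and the fit through the loop gave -0.42 ± 0.18 (adjusted p = 1). The comparison without the first array of the breed link at birth put TMSB10 at 0.54 at birth (adjusted p = 0.0456), against 0.29 ± 0.16 with it (adjusted p = 0.325). EGFL7 at birth gave -0.23, -1.06 and -1.0, with a fitted -0.70 ± 0.35 (adjusted p = 0.267). For ACTA2 the 95% intervals lay within -0.55 and 0.51 at all stages.

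Within each sire breed, the change of birth over d 60 was lower for EGFL7, VIM and PLS3 in Piedmontese-sired muscle, 3 of 6 members where 22.9% of features were lower. In Wagyu-sired muscle TMSB10 joined them, 4 of 6 where 24.7% were lower. TMSB10 was -0.44 ± 0.24 (SE) in Piedmontese-sired muscle (adjusted p = 0.137) and -1.21 ± 0.23 in Wagyu-sired muscle (adjusted p = 0.000227). The difference itself, 0.77 ± 0.21, passed the test (adjusted p = 0.027), as did 13.2% of all features. It was lost without the second or the third array of the breed links at d 60 or at birth (0.64 to 0.73, adjusted p = 0.0791 to 0.11), with the median over its elements (0.65, adjusted p = 0.0749) and with ratios at the limit kept (0.64, adjusted p = 0.14). Clone 1 had a difference of -0.05 ± 0.20, and the other clones 0.46 ± 0.26, 0.96 ± 0.42, 0.91 ± 0.36 and 1.67 ± 0.55, none of which passed the test singly. For the other members the difference was -0.31 ± 0.46 for EGFL7, -0.03 ± 0.22 for ACTA2, -0.03 ± 0.88 for CNN1, -0.29 ± 0.16 for VIM and -0.69 ± 0.56 for PLS3.

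Other genes of the same cell types and structures were read from lists. For birth over d 60, 25.6% of all features were lower and 22.6% higher. Of 18 other genes of the nonmuscle cytoskeleton, 14 were lower and 1 higher at birth than at d 60, with a median log2 ratio of -1.63. The 3 with the smallest p were ACTG1 (-2.53 ± 0.19 SE, adjusted p = 1.46e-09), a nonmuscle actin, STMN1 (-3.27 ± 0.30, adjusted p = 2.25e-08), which destabilizes microtubules, and TUBA1A (-3.25 ± 0.31, adjusted p = 3.5e-08), an alpha-tubulin. The gene that rose was TPM3 (1.16 ± 0.27, adjusted p = 0.00135), a tropomyosin with nonmuscle forms and a slow muscle form. Of 5 other endothelial genes 2 were lower, EMCN (-0.75 ± 0.21, adjusted p = 0.00571), a surface sialomucin, and AQP1 (-0.50 ± 0.19, adjusted p = 0.0331), a water channel, while CAV1 of the caveolae was at -0.58 ± 0.59 and did not pass. ANGPT2 (-0.05 ± 0.35) and PLVAP (-0.001 ± 0.242) did not pass either. The median of these 5 was -0.50, and EGFL7 at -2.48 was below each of them. For birth over d 195, 1 of the 5 was lower, with a median of -0.37. Of 3 other mural genes MCAM was lower (-2.30 ± 0.26, adjusted p = 1.96e-07), an adhesion molecule of pericytes and endothelium, and NOTCH3 (0.33 ± 0.25) and the enteric smooth muscle actin ACTG2 (-0.17 ± 0.30) did not pass.

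Lists of other cell types were read over the same interval, where 25.6% of all features were lower and 22.6% higher. The part of these other lists in the members' changes was not tested. Of 12 fibroblast and matrix genes 11 were lower at birth than at d 60, with a median of -2.80. They were led by COL3A1 (-3.88 ± 0.21 SE, adjusted p = 5.25e-11), FN1 (-4.67 ± 0.26, adjusted p = 5.72e-11) and LUM (-3.36 ± 0.25, adjusted p = 1.37e-09), a fibrillar collagen, fibronectin and a matrix proteoglycan. Of 25 genes of skeletal muscle fibres 24 were higher and none was lower, with a median of 2.12, led by TMOD4, MB and LDB3. Of 6 immune genes 2 were higher and 2 lower, with a median of -0.05. Of 13 adipocyte genes 2 were higher and 3 lower, with a median of 0.05. No gene of the blood, nerve, cartilage and epidermis lists was measured under a single name, so that skin in the d 60 sample could not be read from these arrays.

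The genes most like each member over the 25 fetal arrays were sought among the other named genes by uncentred correlation of the log2 ratios, which arrays of 1 loop share. VIM was closest to FN1 (0.96), ACTG1 (0.96) and the unnamed locus LOC784131 (0.94). EGFL7 was closest to IGFBP6, MYOG and ANGPTL2 (0.89, 0.88 and 0.88), which encode a binding protein of insulin-like growth factors, the myogenic factor myogenin and a secreted angiopoietin-like protein. TMSB10 was closest to its paralog TMSB4X (0.89), then to ADIRF (0.88) and LOC515141 (0.87). PLS3 was closest to the receptor gene NOTCH2, the fatty acid binding protein gene FABP5 and KIAA1191 (0.80, 0.79 and 0.79, over 23 arrays). ACTA2 was closest to the smooth muscle actin ACTG2 (0.70), then to MYL11, a fast muscle myosin light chain, and SLC25A28, a mitochondrial iron carrier (0.68 each). CNN1 was closest to FABP4 and ADIPOQ (0.64 and 0.60, over 22 arrays), a fatty acid binding protein and adiponectin of adipocytes, and BTBD2 (0.58, over 21 arrays). This measure gives large ratios more weight, and the CNN1 ratios include the -4.88 read from a single spot. Among the members, EGFL7 and TMSB10 were most alike (0.75), followed by VIM and PLS3 (0.67), whereas ACTA2 and PLS3 were at -0.54.

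The arrays of T1, T2 and T3 showed smaller differences. Over both sire breeds CNN1 was 1.43-fold higher and TMSB10 1.30-fold lower at T2 than at T1, and at T3 EGFL7, CNN1 and VIM were 1.51-fold, 1.43-fold and 1.41-fold lower than at T2. Of the 17253 features, 2.8% were higher and 4.06% lower at T2 than at T1, and 6.73% were higher and 3.98% lower at T3 than at T2. For T3 over T1 VIM alone passed, as lower, where 0.562% of features were lower. PLS3 stayed within its error, at -0.02 ± 0.16 and 0.03 ± 0.16 (SE) for T2 over T1 and T3 over T2.

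**Figure D4:**
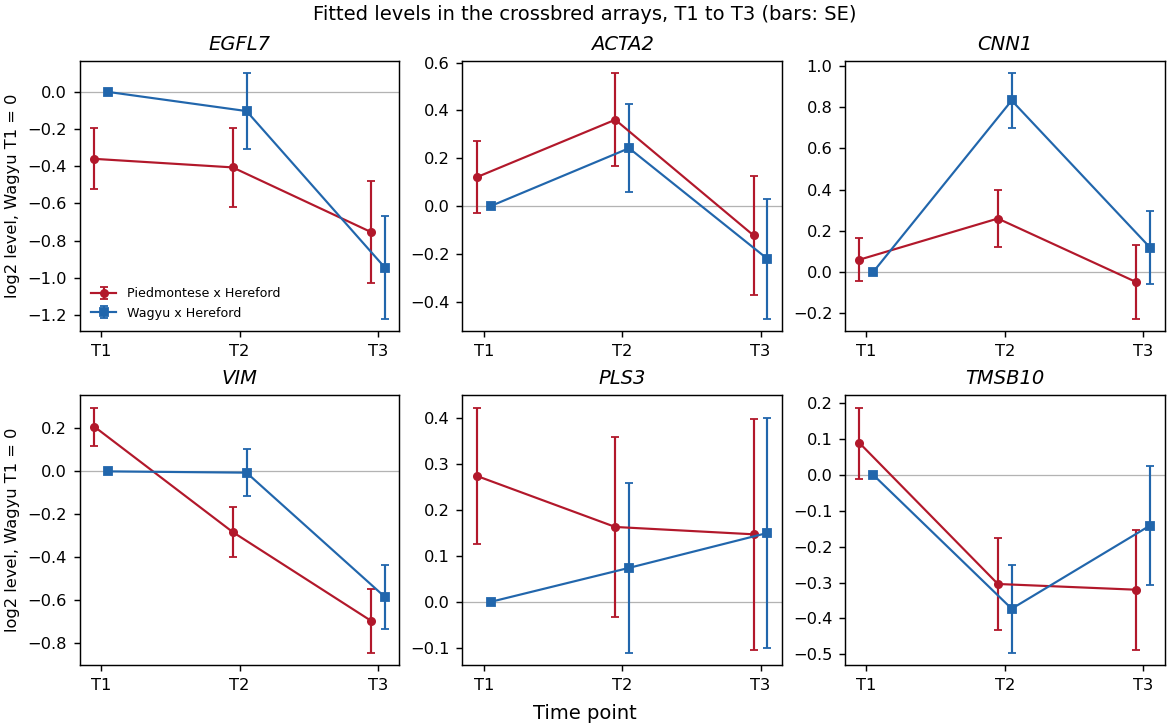
Fitted log2 level of each gene (vertical axis) at T1, T2 and T3 (horizontal axis) relative to Wagyu × Hereford T1, in Piedmontese × Hereford (circles) and Wagyu × Hereford (squares) muscle, with the SE of the difference from Wagyu × Hereford T1 as bars. VIM is lowest at T3 in both crosses, and CNN1 at T2 stands at 0.26 in Piedmontese × Hereford, below 0.83 in Wagyu × Hereford.

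VIM gave -0.32 and -0.73 for T3 over T2 in Piedmontese × Hereford and -0.39 and -0.54 in Wagyu × Hereford, all below 0, and a fitted mean of -0.50 ± 0.10 (SE, adjusted p = 0.00435). Without the second Piedmontese × Hereford array of this step the mean was -0.41 (adjusted p = 0.0513). Fitted singly, all 9 VIM clones lay below 0 at this step, at -0.76 to -0.26. The test was passed by 3 of these clones and by 6 of the 18 elements fitted as single features. For T3 over T1 the mean of VIM was -0.74 ± 0.14 (adjusted p = 0.0126), and 3 clones and 6 elements passed singly. That call was lost without the second arrays of Piedmontese × Hereford T3 over T2, of Piedmontese × Hereford T2 over T1 or of Wagyu × Hereford T2 over T1 (-0.66 to -0.70, adjusted p = 0.0528 to 0.067), and without centring (-0.73, adjusted p = 0.0953). EGFL7 gave -0.33 and -0.21 for T3 over T2 in Piedmontese × Hereford and -0.63 and -1.21 in Wagyu × Hereford, all below 0, with a mean of -0.60 ± 0.18 (adjusted p = 0.0392). It was lost without either Piedmontese × Hereford array or without the Wagyu × Hereford array at -1.21 (-0.46 to -0.64, adjusted p = 0.109 to 0.258), and without centring or with scaled arrays (-0.59 and -0.50, adjusted p = 0.118 and 0.124).

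ACTA2 was below 0 on all 4 arrays of T3 over T2, at -0.28 and -0.27 in Piedmontese × Hereford and -0.37 and -0.97 in Wagyu × Hereford, and its mean of -0.47 ± 0.16 (SE) did not pass the test (adjusted p = 0.0673). It passed without the first Wagyu × Hereford array of this step (-0.61, adjusted p = 0.0457) and without the second array of the breed link at T1 (-0.47, adjusted p = 0.0491), and with array weights (-0.42, adjusted p = 0.0192). Clone 1 was lower at T3 (-0.65 ± 0.17, adjusted p = 0.0196) and clone 2 did not pass (-0.30 ± 0.19, adjusted p = 0.353). ACTA1 stood at -0.43 ± 0.21 there (adjusted p = 0.208). TMSB10 gave -0.35 and -0.39 for T2 over T1 in Piedmontese × Hereford and -0.36 and -0.43 in Wagyu × Hereford, with a mean of -0.38 ± 0.11 (adjusted p = 0.0391). These 4 arrays lay close together, and the call was nevertheless lost without any 1 of them, without either Piedmontese × Hereford array of T3 over T2 or without the second array of the breed link at T2 (-0.34 to -0.42, adjusted p = 0.0507 to 0.206). It was also lost without centring, with scaled arrays and without a dye term (adjusted p = 0.151, 0.0594 and 0.0552). Its clones again differed, with 0.17 ± 0.20 for clone 1 and 0.05 ± 0.26 for clone 3 against -0.55 ± 0.15, -0.87 ± 0.16 and -0.72 ± 0.19 for clones 2, 4 and 5. TMSB4X fell at this step, with -0.56 ± 0.11 (adjusted p = 0.00901).

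CNN1 gave 0.66 and 0.28 for T2 over T1 in Piedmontese × Hereford and 0.51 and 0.62 in Wagyu × Hereford, all above 0, with a mean of 0.52 ± 0.11 (SE, adjusted p = 0.0137). It was lost without the first Piedmontese × Hereford array or either Wagyu × Hereford array of this step (0.46 to 0.52, adjusted p = 0.0532 to 0.0993). For T3 over T2 it gave -0.09 and 0.02 in Piedmontese × Hereford and -1.15 and -0.83 in Wagyu × Hereford, and a mean of -0.51 ± 0.11 (adjusted p = 0.0095), lost without either Piedmontese × Hereford array (-0.47 and -0.52, adjusted p = 0.0664 and 0.0529) and with scaled arrays (-0.44, adjusted p = 0.0571). At this step T2 carried the opposite dyes in the crosses. With the dye term the fall was -0.31 ± 0.13 in Piedmontese × Hereford and -0.71 ± 0.13 in Wagyu × Hereford, and the difference of 0.41 ± 0.13 did not pass the test (adjusted p = 0.264). CNN1 had a dye offset, with a Cy5 over Cy3 term of -0.32 ± 0.05 in the ordinary least-squares fit of these arrays, and the self-hybridised array had the same sign. Without a term for the dye the calls of CNN1 for T2 over T1 and T3 over T2 were lost (adjusted p = 0.152 and 0.127).

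Between the crosses, CNN1 at T2 was the 1 called pair of 18 pairs of member and time point, lower in Piedmontese × Hereford than in Wagyu × Hereford. The arrays with Piedmontese × Hereford in Cy5 gave -1.24 and -0.89 and those with it in Cy3 gave -0.25 and 0.11. The fitted difference was -0.57 ± 0.10 (SE, adjusted p = 0.00198), and it kept its size without the dye term but not its call (adjusted p = 0.103). At T1, T2 and T3, 0.753%, 3.28% and 0.539% of features passed in either direction. CNN1 was 0.06 ± 0.11 at T1 and -0.17 ± 0.11 at T3, and neither passed. VIM was 0.21 ± 0.09, -0.28 ± 0.08 and -0.11 ± 0.09 at T1, T2 and T3 (adjusted p = 0.27, 0.0802 and 0.644), and the value at T2 passed with array weights (-0.26, adjusted p = 0.0441).

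The change of T2 over T1 differed between the crosses for CNN1 and VIM, 2 of 6 members where 1.13% of features passed. VIM gave -0.43 and -0.73 in Piedmontese × Hereford against 0.19 and -0.02 in Wagyu × Hereford, which did not overlap. T2 carried opposite dyes in the crosses on these arrays, so that dye and cross cannot be told apart from them alone. The Cy5 over Cy3 term of VIM was 0.10 ± 0.04 (SE, ordinary least squares). With a dye term fitted, the difference between the crosses was -0.48 ± 0.11 (SE, adjusted p = 0.036). This call was lost without 12 of the 20 arrays (-0.44 to -0.52, adjusted p = 0.0518 to 0.0885), namely all 4 arrays of the breed link at T2, the second to the fourth at T1 and the third at T3, the first Wagyu × Hereford and second Piedmontese × Hereford array of T2 over T1, and the second Wagyu × Hereford and first Piedmontese × Hereford array of T3 over T2. It was also lost without centring (-0.36, adjusted p = 0.275), without the dye term (-0.52, adjusted p = 0.0504) and with ratios at the limit kept (-0.50, adjusted p = 0.0955). Fitted singly, the 9 VIM clones had differences of -0.79 to -0.15, and 2 of them and 5 of the 18 elements passed the test. CNN1 had a difference of -0.63 ± 0.13 (adjusted p = 0.0176), and without the first array of the breed link at T2 it was -0.56 (adjusted p = 0.0532). The CNN1 arrays of the step itself overlapped between the crosses, and T2 carried Cy3 in Piedmontese × Hereford and Cy5 in Wagyu × Hereford. Without the dye term the CNN1 difference was -0.50 (adjusted p = 0.474), and with scaled arrays it was -0.66 (adjusted p = 0.0507).

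At T3 over T2, 5 of 12 fibroblast and matrix genes were lower than at T2 and none higher, with a median of -0.34, and 2 of 18 other nonmuscle cytoskeleton genes were lower, SEPTIN2 (-0.44 ± 0.09 SE, adjusted p = 0.0068) and TUBA1A (-0.54 ± 0.14, adjusted p = 0.02). Of 5 other endothelial genes AQP1 was lower (-0.51 ± 0.13, adjusted p = 0.0221), and of 3 other mural genes none passed. Of 25 genes of skeletal muscle fibres 7 were lower and 2 higher. Over all features 3.98% were lower and 6.73% higher at this step. The part of these lists in the members' values was not tested.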

How the data were processed

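The log2 ratios were deposited by the authors as 1 table of 21168 elements, scanned and quantified with GenePix. The study's methods describe editing of each channel by criteria given elsewhere, background correction and log2 transformation of intensities, and whether this table holds those edited values is not given in the sources used here. 24 of its 70 columns belong to other experiments and were not used. Values at the upper limit of 16.61 (24 to 216 per fetal array) were treated as missing, and arrays, whose medians lay between -0.482 and 0.465, were centred on their median. The elements of a gene were averaged, and a feature needed values on 20 of 25 fetal or 16 of 20 crossbred arrays. Group effects and a dye intercept were fitted by least squares for each pattern of missing arrays (R 4.3.3), with variances moderated by limma 3.58.1, leaving 17 and 14 residual degrees of freedom. Arrays were taken as independent although animals were hybridised more than once and the labels tie no array to an animal, so that P-values measure the spread between arrays. On simulated data over 16659 features, 35 of 100 features changed by 1 log2 unit and 94 of 100 changed by 2 were recovered for birth over d 60, 81 and 98 for birth over d 195, and 66 and 95 for the breed difference at birth. Over 17253 features, 82 and 97 were recovered for T3 over T2, and 91 and 98 for the crosses at T2. Of the unchanged features, 7 to 14 were called in each comparison. Only these few features were changed there, with independent noise, whereas 8030 features were called for birth over d 60 in the data. The shares recovered therefore need not hold for these data. The genes described, the lists and the tests were chosen with earlier results of these data known. The genes named are the members, ACTA1 and TMSB4X, the 3 most alike genes of each member, and the 3 genes of a list with the smallest p for birth over d 60. Other genes named were chosen after their values were seen. VIM and PLS3 are among genes the study selected on these arrays for change with age, and VIM and TMSB10 for a sire breed difference. Alternatives covered centring, scaling, array weights, limit values, the filter, the summary of elements, the dye term, an offset per array number and each array left out. The number of arrays limits the precision.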

Additional observations from a re-analysis of the deposited data

Results flagged for a closer look

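The change of birth over d 60 differed between sire breeds for TMSB10, by 0.767 as Piedmontese minus Wagyu (adjusted p = 0.027). This difference rests in part on the d 60 groups, where the paper proposes a possible amplification bias in a Piedmontese-sired sample. The change of T2 over T1 differed between the crosses, as Piedmontese × Hereford minus Wagyu × Hereford, for CNN1 by -0.632 (adjusted p = 0.0176) and for VIM by -0.483 (adjusted p = 0.036). In the links with 4 arrays no member had an array past Dixon's 95% critical value, which sets the gap to the nearest array against the range of the link. The widest gap was that of CNN1 in Wagyu-sired d 195 over d 135, where the array at -4.88 had a gap of 0.715 of the range.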

How the results depend on the processing

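Of 1029 values of members and comparisons recomputed under the alternatives other than leaving out an array, 991 kept their direction where called and their side of the threshold, 30 lost the call, 6 gained it and 2 turned round. Values not called in the main fit could not lose a call. In that fit 12 of 24 pairs of member and comparison were called over fetal time and 6 of 18 over crossbred time. Of all 16659 features, 5161, 2804 and 8744 were called at the fetal steps in order of age, and 8030 for birth over d 60. Of all 17253 features, 1184, 1847 and 131 were called for T2 over T1, T3 over T2 and T3 over T1. Between sire breeds 0 of 24 fetal and 1 of 18 crossbred pairs were called. The members called numbered 2 in d 195 over d 135 with array weights, against 1, the other being CNN1. Between sire breeds in the fetal arrays they numbered 1 with scaled arrays and 1 with array weights, against 0 (TMSB10 at d 60, -0.57 and -0.51), and 0 to 1 with each array left out. Over crossbred time there were 3 without centring, 3 with scaled arrays and 3 without the dye term, against 6, and 1 to 7 with each array left out, the lowest without the second Piedmontese × Hereford array of T3 over T2. Between the crosses 2 were called with array weights, VIM at T2 being the other, and 0 without the dye term, against 1. With ratios at the upper limit kept, PLS3 was 2.10 for birth over d 195 and 0.36 for birth over d 60, through 1 spot value at that limit. TMSB10 for birth over d 60 was -0.48 with scaled arrays (adjusted p = 0.0711). Leaving out TMSB10 clone 1, chosen after seeing the data, changed no call and 2 signs of uncalled values. With an offset for each array number in place of the dye term, 3 calls were lost and no others changed: PLS3 for birth over d 195 (-0.93, adjusted p = 0.0556), TMSB10 for T2 over T1 (-0.38, adjusted p = 0.0505) and the VIM difference between the crosses in T2 over T1 (-0.49, adjusted p = 0.0614). Such an offset does not model an animal shared between arrays. Arrays of the same number in neighbouring links correlated at a median of -0.18 (24 pairs, 15 under -0.1 and 5 over 0.1) and those of other numbers at 0.08 (54 pairs, 9 under -0.1). The values correlated were residuals from the mean of each link, which cancel out within it. The correlations of same and of other numbers are thus not independent of each other. Whether the numbers follow animals was not tested. The labels do not tie numbers to animals, not every pair was negative, and no fit with animals as a term was made. Over all features, the counts called that moved by over 1.5 times spanned 1772 to 7409 for d 195 over d 135, against 2804, and 798 to 5026 for the sire breed difference in birth over d 60, against 2198. Between sire breeds they spanned 0 to 1977 at d 60, against 8, 0 to 613 at birth, against 46, and 0 to 1 at d 135 and at d 195, against 0. In the crossbred arrays they spanned 739 to 1369 for T2 over T1, against 1184, 1123 to 3129 for T3 over T2, against 1847, and 71 to 272 for T3 over T1, against 131. Between the crosses they spanned 26 to 286, 364 to 1112 and 46 to 776 at T1, T2 and T3, against 130, 566 and 93. Depth of signal over background is unknown, since intensities were not used. Causes of the other changes were not tested.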
